A study of Mus musculus with 32 samples.

Results

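Tumor necrosis factor and the NF-κB system were followed across the whole experiment as 10 genes of the 45706 in the count table: Tnf, the subunit genes Nfkb1, Nfkb2, Rela and Relb, the inhibitor genes Nfkbia, Nfkbie and Nfkbiz, and the ubiquitin-dependent brakes Tnfaip3 and Tnip1. They were chosen by gene symbol, and each symbol matched 1 row of the table. RNA was sequenced from the mouse microglial line BV-2 in 32 libraries that form 8 groups of 4. Vehicle was given to 4 groups (VEH_) and lipopolysaccharide (LPS) at 10 ng/ml for 24 h to the other 4 (LPS_). All cells carried a transfected oligonucleotide, which completes the group name: a scramble control (VEH_scramble and LPS_scramble) or a mimic of miR-7a-5p (VEH_miR-7a and LPS_miR-7a), of miR-29a-3p (VEH_miR-29a and LPS_miR-29a) or of miR-146a-5p (VEH_miR-146a and LPS_miR-146a). The labels place the LPS before the transfection, whereas the methods of the study describe the transfection first, so the order is uncertain. Replicates 1 to 4 are called independent experiments by the study, all on 1 cell line of wild-type genotype, and mature microRNA was not analysed here.

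NF-κB is a family of dimeric transcription factors that wait in the cytoplasm bound to inhibitor proteins. Toll-like receptors that sense LPS, and the receptors of tumor necrosis factor, activate the IKK kinases, the inhibitors are degraded and the dimers enter the nucleus. There they switch on cytokines such as Tnf and also their own inhibitors, which makes the response self-limiting.

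The labels call the cell type glioblastoma and attach a mouse age to some libraries of this cell line. Of 13 microglial and macrophage markers 10 averaged over 1 CPM (counts scaled to a common library total, with TMM, a correction for library composition). Their sum lay between 2025 and 5061 CPM (3029 to 5061 under vehicle, 2025 to 3746 under LPS). Cd68 averaged 1032 CPM and Ptprc 450.5 CPM, while Csf1r, Cx3cr1 and C1qa averaged 0.656, 0.831 and 0.597 CPM. Of the 7 astrocyte and glioma markers 0 passed 1 CPM, and their sum did not exceed 2.18 CPM in any library. Neuron, fibroblast and endothelial, and T and B cell markers likewise had 0 genes over 1 CPM, and the oligodendrocyte marker Mbp averaged 3.66 CPM. Library totals ran from 1131888 counts (VEH_miR-7a replicate 4) to 20319802 counts (LPS_scramble replicate 4). Replicates 2, 3 and 4 of VEH_miR-7a stood apart, with 33.6% to 37.3% of their counts in small structural RNA genes against 2.98% to 19.5% in the other 29 libraries.

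The 3 mimics carry different seeds, the bases 2 to 8 that pair with a target RNA. Their mature sequences are shown because every mimic comparison turns on them, with the seed in capitals (RefSeq, GRCm38.p6):
miR-7a-5p: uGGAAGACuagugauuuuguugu
miR-29a-3p: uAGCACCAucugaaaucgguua
miR-146a-5p: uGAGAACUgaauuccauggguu

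The 3′ untranslated regions of the 10 genes were searched on the transcript strand for the letters that pair with bases 2 to 8 (GTCTTCC for miR-7a, TGGTGCT for miR-29a, AGTTCTC for miR-146a) or with bases 2 to 7 followed by an A (TCTTCCA for miR-7a, GGTGCTA for miR-29a and GTTCTCA for miR-146a). The longest annotated 3′ untranslated region of each gene was used. Tnfaip3, Relb and Rela held 1 miR-7a match each, Rela also held 1 miR-29a match, and 0 of the 10 genes held a miR-146a match. Among 8794 genes with a mean of at least 10 CPM, 26.8% held a miR-7a match, 19.9% a miR-29a match and 21.4% a miR-146a match. The 4 matches are given because Tnfaip3, Relb and Rela recur in the comparisons below, with the matching letters in capitals (GRCm38).
Tnfaip3, miR-7a, chr10:19001521-19001550, minus strand: aagaaattgtctGTCTTCCAtatatgcttc
Relb, miR-7a, chr7:19606462-19606491, minus strand: caaccttgatcaGTCTTCCAgcttcctcat
Rela, miR-7a, chr19:5647747-5647775, plus strand: ttactatcaagtGTCTTCCtccacgcgga
Rela, miR-29a, chr19:5647813-5647841, plus strand: gcagctcctacgTGGTGCTgcccgacacc

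In Tnfaip3 and Relb the match runs over 8 letters, since an A follows the seed match. A match is a description of these letters and not a test of binding.

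All 10 genes are protein-coding and were detected in all 32 libraries, and all passed the filter on low counts in each comparison that tested them. Counting can be shared where genes overlap. Nfkb2 and Tnip1 have annotated genes on the opposite strand (Psd and AC114539.1, and Gm12230), and Nfkb1 holds Gm43430 on its own strand. Counts, whose lost decimal marks had to be restored, ran from 43 to 2803 per library for Tnfaip3, from 10 to 542 for Tnf, from 6 to 410 for Relb and from 1 to 131 for Nfkbie. Of the 320 values 319 had a certain reading. The exception was Tnip1 in VEH_miR-29a replicate 2, printed as 17001, which the restoration read as 170.01 with a probability of 0.566 and otherwise as 17.001. The first reading gives 55.5 CPM, beside 57.1, 63.4 and 69.5 CPM in the other replicates of the group, and the second would lie below them all. For its uncertain value Tnip1 was left out of the 3 tests that use VEH_miR-29a.

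To set the genes beside each other, levels were divided by exon length. This length joins the exons of all annotated transcripts of a gene, also of transcripts that may not be used here. It was 12061 bases for Nfkb1 (10 transcripts) and 7226 for Tnfaip3 (6), against 1610 for Nfkbia and 1639 for Tnf (2 each). The order of the genes depends on this choice, and before scaling Nfkb1 was highest in VEH_scramble, with 78.3 CPM. In VEH_scramble, Nfkbia (the prototype inhibitor, made anew each time NF-κB is active) led with 26.8 ± 6.27 CPM per kb, followed by Tnip1 (a ubiquitin-binding partner of Tnfaip3) with 20.1 ± 1.57 CPM per kb (SD, n = 4 each). Rela, the main transactivating subunit, stood at 15.5 ± 4.08 CPM per kb and Nfkb2, a precursor subunit of the non-canonical pathway, at 13.8 ± 1.18 CPM per kb (SD, n = 4 each). Tnf stood at 10.4 ± 0.413 and Tnfaip3 at 8.05 ± 0.373 CPM per kb (SD, n = 4 each). Nfkb1, Nfkbiz and Relb lay between 5.84 and 6.49 CPM per kb, differences smaller than the SD of Nfkbiz and of Relb, and Nfkbie was lowest at 1.67 ± 0.161 CPM per kb (SD, n = 4). In LPS_scramble, Tnip1 was highest with 32.7 ± 2.50 CPM per kb, and Tnfaip3 reached 17.6 ± 2.15 CPM per kb, above Rela with 9.28 ± 1.84 CPM per kb (SD, n = 4 each).

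**Figure D1:**
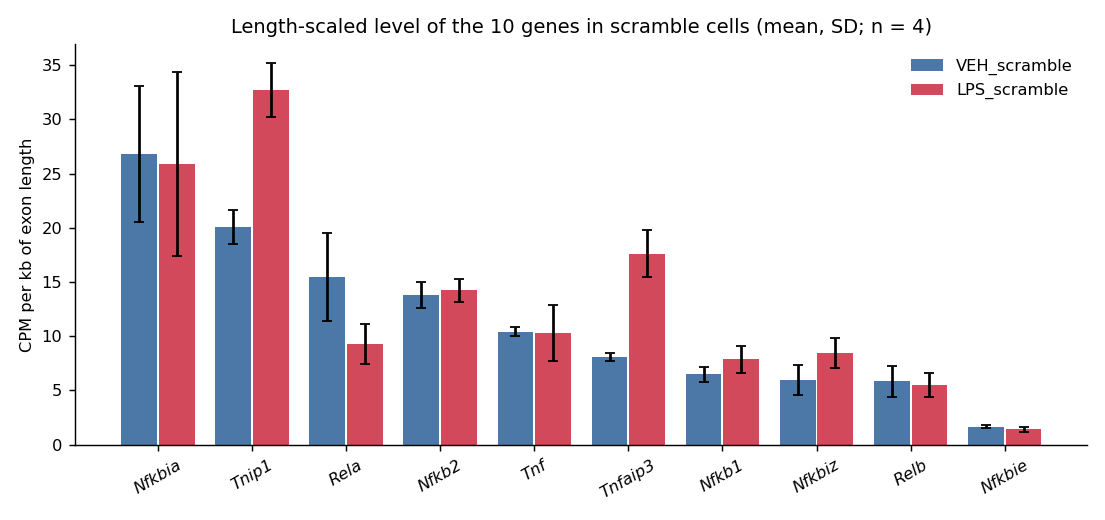
Mean level per kb of exon length of each gene in VEH_scramble (blue) and LPS_scramble (red), with the SD over 4 libraries. Nfkbia leads under vehicle with 26.8 CPM per kb and Tnip1 under LPS with 32.7 CPM per kb, and Nfkbie is lowest in both.

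LPS against vehicle in scramble cells asked how the system stood after 24 h without an active mimic. The brakes Tnfaip3 and Tnip1 rose, and Tnf itself did not pass the test. Of the 10 genes 2 were called, both higher (limma-voom, adjusted p under 0.05), against 18.1% of all 12175 genes tested and 9.63% called higher.

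Tnfaip3 encodes an enzyme that edits ubiquitin chains on the receptor complexes and so shuts off NF-κB. It was at 56.4, 59.6, 55.5 and 61.3 CPM in the VEH_scramble libraries and at 131, 142, 105.5 and 130 CPM in LPS_scramble. All LPS libraries lay above all vehicle libraries. The fold change on the log2 scale (log2 change) was 1.14 with an SE of 0.14 (limma adjusted p = 0.000312). Tnip1 was at 73.8, 76.6, 63.7 and 70.2 CPM under vehicle and at 107, 116, 111 and 128 CPM under LPS. Its groups did not overlap either, and its log2 change was 0.72 with an SE of 0.13 (limma adjusted p = 0.00372). Groups did not overlap for 2 of the 10 genes, against 22% of 13453 genes of at least 1 CPM. The summed microglial and macrophage markers were at 3029 to 5061 CPM in the vehicle libraries of all mimics and at 2025 to 3746 CPM in the LPS libraries, and their part in these results was not tested. In bulk RNA, fewer cells with a transcript and less transcript per cell cannot be told apart.

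Tnf was at 16.4, 16.7, 17.98 and 17.1 CPM under vehicle and at 20.7, 11.6, 19.8 and 15.5 CPM under LPS. The LPS libraries fell on both sides of the narrow vehicle group, and the log2 change of -0.09 had a 95% interval of -0.53 to 0.36 (limma adjusted p = 0.796). Nfkbia gave a log2 change of -0.08 with an interval of -0.58 to 0.43 (limma adjusted p = 0.837). Relb, the transactivating subunit of the non-canonical pathway, gave -0.00 with an interval of -0.46 to 0.46 (limma adjusted p = 0.995).

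Rela was at 29.2, 56.3, 50.3 and 54.5 CPM under vehicle and at 24.3, 29.7, 36.0 and 24.1 CPM under LPS. One vehicle library, replicate 1, lay among the LPS libraries. The log2 change of -0.66 with an SE of 0.22 missed the threshold (limma adjusted p = 0.0609), but passed with edgeR, at -0.71 (edgeR adjusted p = 0.0446). It also passed with all 32 libraries in 1 fit, at -0.67 (limma adjusted p = 0.0245), with structural RNA genes left out, at -0.68 (limma adjusted p = 0.0486), and without VEH_scramble replicate 1, at -0.90 (limma adjusted p = 0.00588). Nfkbiz, an atypical nuclear inhibitor that also acts as a coactivator, gave a log2 change of 0.49 with an SE of 0.20 (limma adjusted p = 0.102). Same-numbered libraries of these groups deviated together, and with the replicate number as a block 4 of the 10 genes were called, while the calls among all 12175 genes went from 2204 to 3725. Rela then fell, with a log2 change of -0.76 (limma adjusted p = 0.00866), and Nfkbiz rose, with 0.52 (limma adjusted p = 0.0184).

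**Figure D2:**
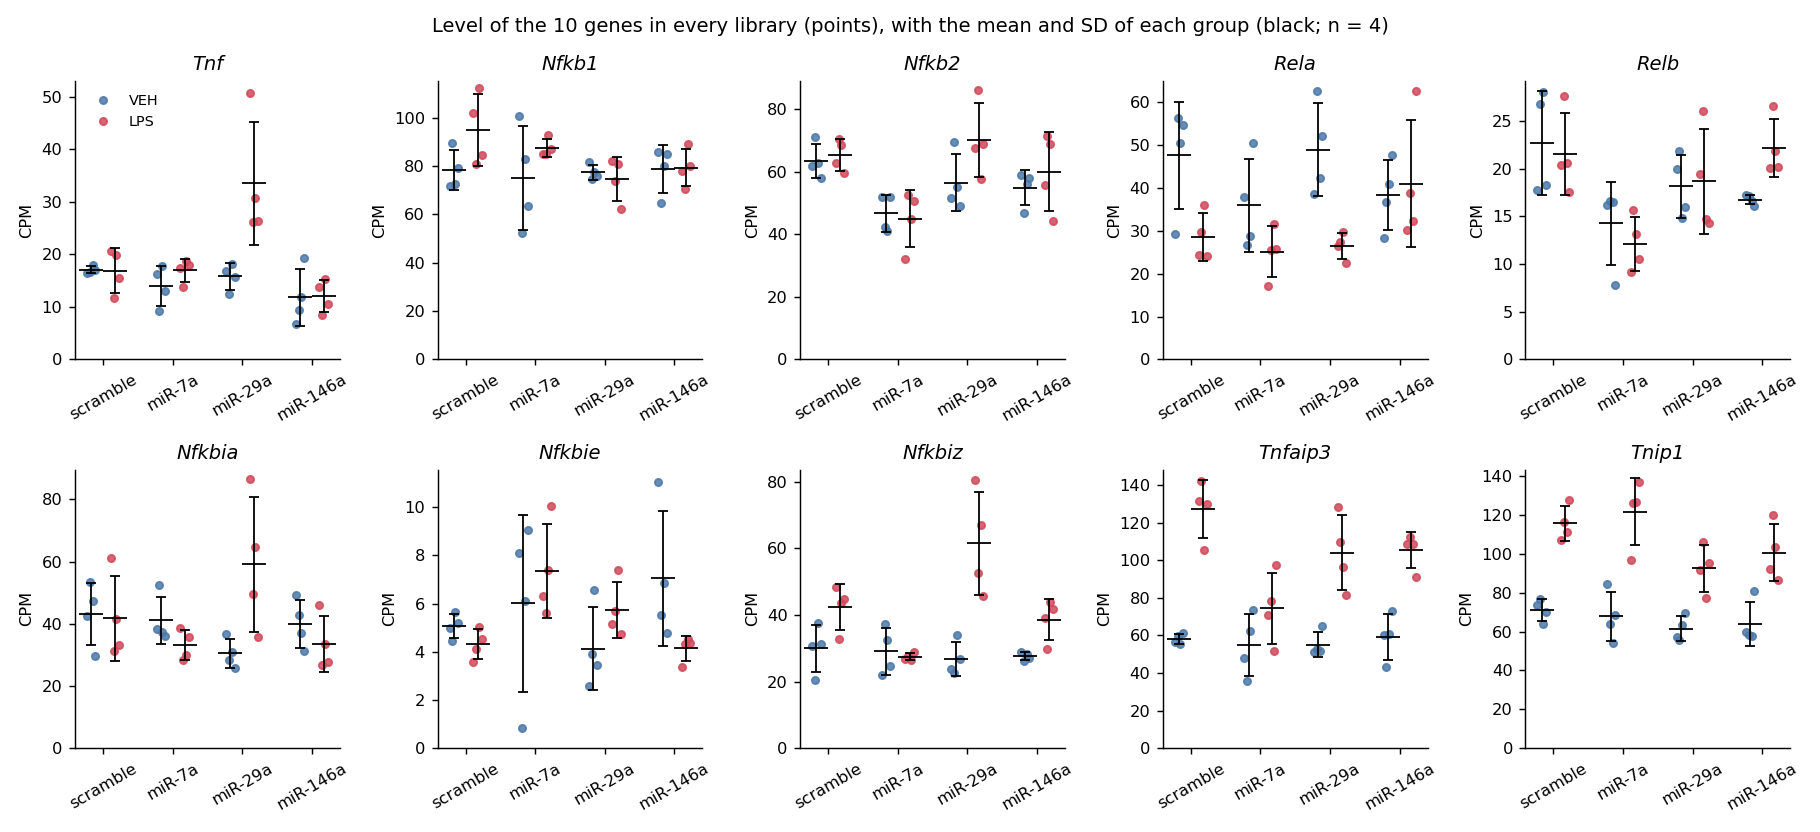
Level in CPM of each gene in every library (points; blue vehicle, red LPS) by mimic, with the mean and SD of each group of 4 (black). Tnfaip3 and Tnip1 are higher under LPS with scramble without overlap, and Tnf reaches 26.1 to 50.8 CPM only in LPS_miR-29a, where every library lies above all 28 others.

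The promoters of both genes that rose were compared with the κB consensus, the 10-letter sequence bound by NF-κB dimers, on both strands. RefSeq windows of 300 bases (250 before to 50 after an annotated start, GRCm38.p6) were at hand for 7 of the 10 genes, 10 windows in all. Of these windows 7, from 5 genes, held a match, against 4.51% of 32851 promoter windows, and the 3 of Nfkb2 and the 2 of Tnfaip3 belong to 1 gene each. The windows of Nfkb2 that start at 46305445 and 46305680 overlap, and 1 match lies in both. Tnip1 held overlapping matches that start 58, 57 and 56 bases before the start, and Tnfaip3 held matches at 125 and 12 bases before one of its annotated starts. Nfkbia held 1 match at 29 bases before the start. Nfkb2 and Nfkbie also held matches, and Rela, Tnf and the second Tnfaip3 window held 0. At least 3 matches, overlaps counted, were found in 0.0517% of the windows, among them that of Tnip1 and 1 of the 3 windows of Nfkb2, whose log2 change was 0.07 (limma adjusted p = 0.741). The windows of Tnfaip3 and Tnip1 are printed as the genes that rose together, and that of Nfkbia as their counterpart that did not pass the test in scramble cells, with the matches in capitals.
Tnfaip3, chr10:19015361-19015660, minus strand: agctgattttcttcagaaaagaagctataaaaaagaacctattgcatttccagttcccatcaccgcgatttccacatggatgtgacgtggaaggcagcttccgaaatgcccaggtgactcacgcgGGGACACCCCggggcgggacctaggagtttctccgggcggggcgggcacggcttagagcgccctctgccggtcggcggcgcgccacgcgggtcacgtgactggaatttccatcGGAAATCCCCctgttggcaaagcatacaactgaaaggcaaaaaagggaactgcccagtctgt
Tnip1, chr11:54962891-54963190, minus strand: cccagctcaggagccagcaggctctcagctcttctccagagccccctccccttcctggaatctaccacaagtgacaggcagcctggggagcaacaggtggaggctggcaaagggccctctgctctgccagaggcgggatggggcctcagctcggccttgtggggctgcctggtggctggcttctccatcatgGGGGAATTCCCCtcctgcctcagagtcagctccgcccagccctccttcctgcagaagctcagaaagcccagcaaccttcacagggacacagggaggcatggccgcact
Nfkbia, chr12:55492598-55492897, minus strand: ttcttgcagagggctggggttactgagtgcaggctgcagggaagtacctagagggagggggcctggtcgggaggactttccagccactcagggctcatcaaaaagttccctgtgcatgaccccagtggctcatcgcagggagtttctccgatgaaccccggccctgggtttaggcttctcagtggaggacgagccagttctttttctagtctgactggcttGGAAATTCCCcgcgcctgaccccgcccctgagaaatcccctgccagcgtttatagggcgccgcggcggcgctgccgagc

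A match is not evidence of occupancy, and its absence says only that these letters are not in this window.

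**Figure D3:**
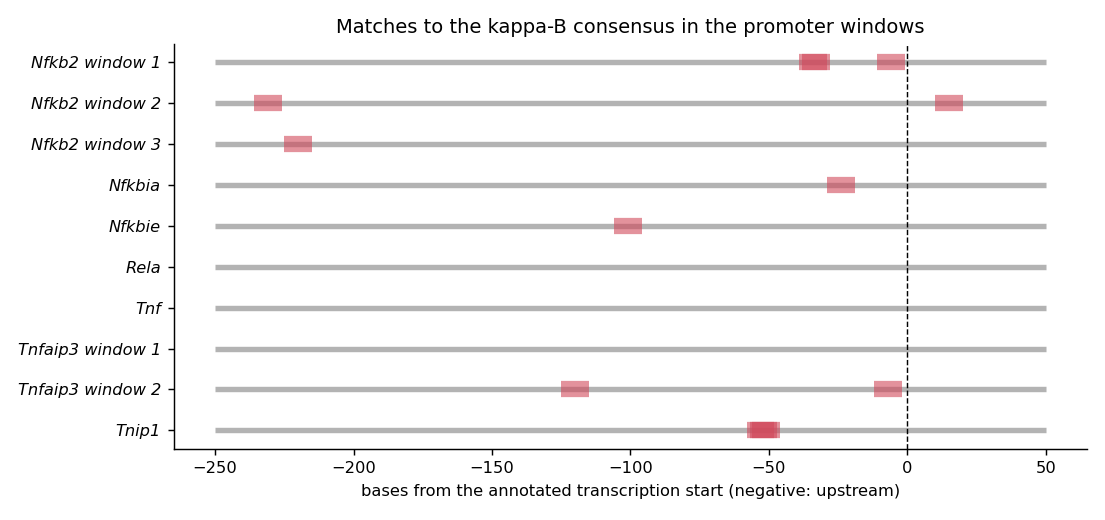
Position of matches to the κB consensus (red) in the 10 promoter windows (grey), in bases from the annotated start at 0. Tnip1 has overlapping matches from 58 bases upstream, Tnfaip3 has 2 in one of its 2 windows, and Tnf and Rela have 0.

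The same contrast within each mimic asked whether the response to LPS kept its shape when a microRNA was supplied. Tnip1 rose with miR-7a, both brakes rose with miR-146a, and with miR-29a Tnfaip3, Nfkbiz, Tnf and Nfkbia rose and Rela fell. With miR-7a, 1 of 10 genes was called, against 6.77% of 11796 genes and 2.71% called higher. With miR-146a, 2 of 10 were called, both higher, against 4.52% of 11977 and 2.91% called higher. With miR-29a, 5 of the 9 genes tested were called, 4 higher and 1 lower, against 26.6% of 12113. Among all genes 12.8% were called higher and 13.8% lower.

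With miR-29a, Tnf was at 16.9, 12.4, 18.2 and 15.6 CPM under vehicle and at 50.8, 26.1, 30.7 and 26.4 CPM under LPS. No LPS library overlapped the vehicle group, and replicate 1 was the highest. The log2 change was 0.96 with an SE of 0.24 (limma adjusted p = 0.0110). Nfkbiz was at 23.8, 22.5, 34.1 and 26.9 CPM under vehicle and at 80.7, 52.8, 67.0 and 45.7 CPM under LPS. It too separated fully, with a log2 change of 1.13 and an SE of 0.21 (limma adjusted p = 0.00225).

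Nfkbia was at 36.9, 28.4, 30.9 and 25.7 CPM under vehicle and at 86.5, 49.6, 64.7 and 35.9 CPM under LPS. Replicate 4 under LPS lay inside the vehicle range, and the log2 change was 0.89 with an SE of 0.25 (limma adjusted p = 0.0212). The call was lost without VEH_miR-29a replicate 3, VEH_miR-29a replicate 4 or LPS_miR-29a replicate 3, at log2 changes of 0.91, 0.79 and 0.83 (limma adjusted p = 0.0537, 0.0752 and 0.0530). Tnfaip3 rose in these cells by a log2 change of 0.87 with an SE of 0.16 (limma adjusted p = 0.00249).

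Rela fell with miR-29a, from 38.6, 62.6, 42.3 and 52.1 CPM under vehicle to 26.5, 27.4, 29.7 and 22.4 CPM under LPS. The groups did not overlap, and the log2 change was -0.85 with an SE of 0.17 (limma adjusted p = 0.00374). Tnip1, left out of this test for its uncertain value, gave a log2 change of 0.56 when the value was kept at its most probable reading (limma adjusted p = 0.0141) and of 0.52 without VEH_miR-29a replicate 2 (limma adjusted p = 0.0334). Groups did not overlap for 5 of the 10 genes, Tnip1 among them at its most probable reading, against 26.8% of 13457 genes.

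With miR-7a, Tnip1 was at 84.5, 64.1, 54.3 and 68.6 CPM under vehicle and at 96.8, 126, 127 and 137 CPM under LPS. All LPS libraries were higher, with a log2 change of 0.77 and an SE of 0.18 (limma adjusted p = 0.0240). The call was lost without VEH_miR-7a replicate 2, 3 or 4 or LPS_miR-7a replicate 2, 3 or 4, with log2 changes of 0.67 to 0.78 (limma adjusted p = 0.0513 to 0.0923). The VEH_miR-7a libraries with a high structural RNA share are among these, and with structural RNA genes left out of the fit the log2 change of Tnip1 was 0.77 (limma adjusted p = 0.0197). Tnfaip3 was at 48.0, 35.8, 62.3 and 73.7 CPM under vehicle and at 70.9, 78.4, 51.4 and 97.2 CPM under LPS, groups that overlapped, with a log2 change of 0.48 and an SE of 0.25 (limma adjusted p = 0.308). Only Tnip1, 1 of 10 genes, had groups that did not overlap, against 13.7% of 13508 genes.

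With miR-146a, Tnfaip3 was at 60.2, 43.3, 60.7 and 73.0 CPM under vehicle and at 109, 113, 109 and 91.2 CPM under LPS. The groups were separate, with a log2 change of 0.86 and an SE of 0.16 (limma adjusted p = 0.00874). Tnip1 gave a log2 change of 0.65 with an SE of 0.16 (limma adjusted p = 0.0330). Its call was lost without VEH_miR-146a replicate 1, 2 or 3 or LPS_miR-146a replicate 2 or 3, at log2 changes of 0.57 to 0.64 (limma adjusted p = 0.0677 to 0.133). Relb and Nfkbiz were higher and Nfkbie lower under LPS without overlap, but missed the threshold with log2 changes of 0.41, 0.46 and -0.58 (limma adjusted p = 0.235, 0.163 and 0.329). In all, 5 of 10 genes did not overlap, against 10.9% of 13345 genes.

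**Figure D4:**
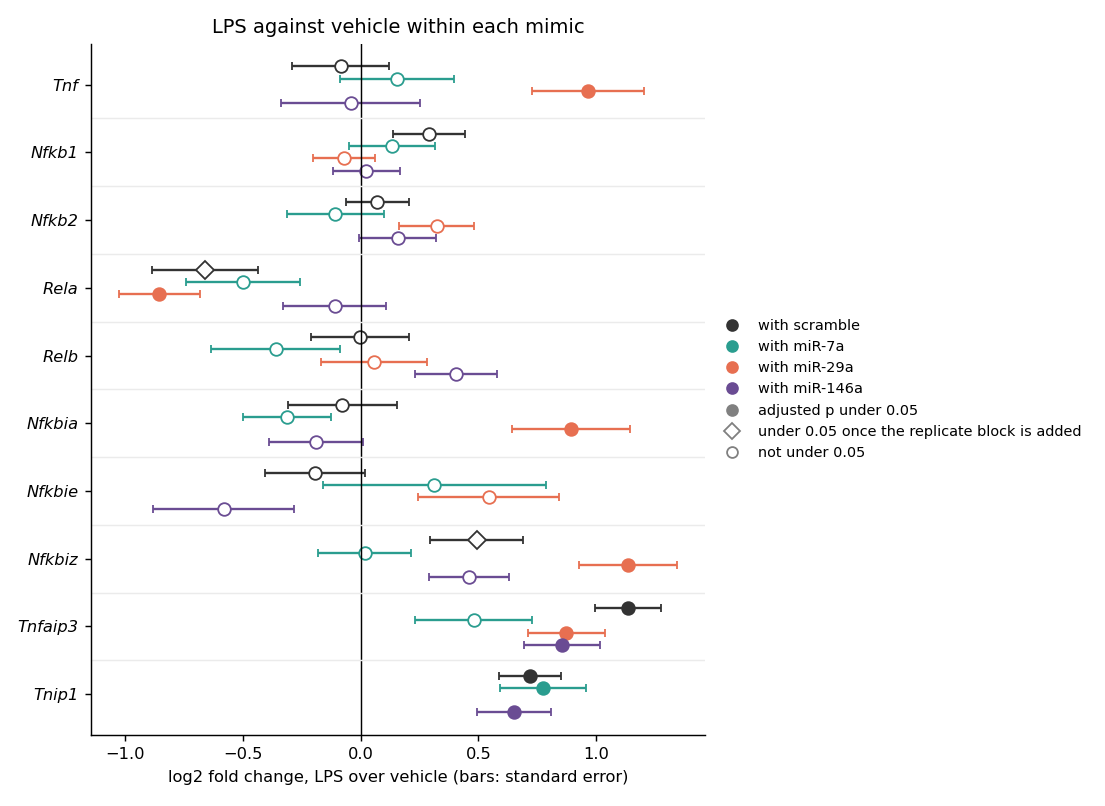
Log2 fold change of each gene, LPS over vehicle, within scramble (black), miR-7a (green), miR-29a (orange) and miR-146a (purple) cells, with the standard error; filled symbols passed an adjusted p under 0.05, and diamonds passed it once the replicate block was added to the fit. Tnf lies near 0 with scramble, at -0.09, and at 0.96 with miR-29a, whose Tnip1 was not tested.

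Whether these responses differed between a mimic and scramble was tested as an interaction over 16 libraries. By limma-voom 0 of 10 genes were called for miR-7a, 0 of 9 for miR-29a and 0 of 10 for miR-146a, and edgeR also called 0 in each. Of all genes, 0.0582%, 0.0164% and 0.00819% were called. At an unadjusted p under 0.05 there were 1, 4 and 0 members, against 5.46%, 6.47% and 11.2% of all genes. For miR-29a the interaction was 1.08 for Tnf with a 95% interval of 0.41 to 1.76, on the log2 scale (unadjusted p = 0.00331, limma adjusted p = 0.502). It was 1.00 for Nfkbia with an interval of 0.23 to 1.76 (limma adjusted p = 0.671). Nfkbiz and Nfkbie gave 0.67 and 0.75 (limma adjusted p = 0.735 and 0.768). For miR-7a, Tnfaip3 gave an interaction of -0.64 with an interval of -1.23 to -0.05 (limma adjusted p = 0.844). After correction over all genes, a response that differs between miR-29a and scramble cells was thus not shown.

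Each mimic against scramble under LPS asked what the microRNAs do in activated cells. The 3 comparisons share the 4 LPS_scramble libraries and are not independent. Tnfaip3 was lower with miR-7a, Tnf was higher with miR-29a, and 0 genes passed with miR-146a. With miR-7a, 1 of 10 genes was called, against 2.88% of 12899 and 1.19% called lower. With miR-29a, 1 of 10 was called, against 4.79% of 13149 and 2.22% called higher. With miR-146a, limma-voom and edgeR both called 0 of 10, against 2.4% of 12484 by limma-voom, and 0 members stood at an unadjusted p under 0.05, against 17.5% of all genes.

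Under miR-7a with LPS, Tnfaip3 was at 70.9, 78.4, 51.4 and 97.2 CPM, against the 105.5 to 142 CPM of LPS_scramble. All 4 libraries were lower. The log2 change of -0.79 with an SE of 0.19 passed narrowly (limma adjusted p = 0.0480). It was lost when any library but LPS_miR-7a replicate 4 was left out, at log2 changes of -0.90 to -0.61 (limma adjusted p = 0.0714 to 0.143). Relb was at 9.19, 15.6, 13.1 and 10.5 CPM with miR-7a and at 20.4, 27.6, 20.6 and 17.6 CPM with scramble. These groups were separate as well, with a log2 change of -0.81 and an SE of 0.20 that missed the threshold (limma adjusted p = 0.0555). Relb passed at a posterior of at least 0.99 for the restored counts, with structural RNA genes left out and with all 32 libraries in 1 fit, at -0.83, -0.82 and -0.83 (limma adjusted p = 0.0457, 0.0496 and 0.0114).

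Nfkbiz lay within 26.4 to 28.9 CPM in the 4 LPS_miR-7a libraries, below the 32.7 to 48.5 CPM of LPS_scramble, with a log2 change of -0.57 (limma adjusted p = 0.06). Nfkb2 gave -0.54 and Nfkbie 0.72 (limma adjusted p = 0.0925 and 0.104). Nfkbiz was called without LPS_scramble replicate 2, at -0.70 (limma adjusted p = 0.0241), and with edgeR, at -0.61 (edgeR adjusted p = 0.0462). With all 32 libraries in 1 fit Nfkbiz and Nfkb2 were called, at -0.58 and -0.55 (limma adjusted p = 0.0451 and 0.0286). Groups did not overlap for 5 of 10 genes, against 11.7% of 13421 genes. Same-numbered libraries deviated together here, and with the replicate block 5 of 10 genes were called, while the block also raised the calls among all genes from 371 to 2117. In that fit Tnfaip3, Relb, Nfkbiz and Nfkb2 fell, with log2 changes of -0.78, -0.78, -0.58 and -0.50, and Nfkbie rose by 0.78 (limma adjusted p = 0.000441, 0.00123, 0.00451, 0.00951 and 0.0118). Tnfaip3 and Relb are the genes whose 8-letter miR-7a matches are printed above. Rela, which has a 7-letter match, gave -0.19 with a 95% interval of -0.62 to 0.24 (limma adjusted p = 0.684), and Nfkbiz and Nfkb2 had 0 matches. Whether the matches have a part in these changes was not tested, and the share of all genes with an 8-letter match was not computed.

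Under miR-29a with LPS, Tnf at 50.8, 26.1, 30.7 and 26.4 CPM compared with 20.7, 11.6, 19.8 and 15.5 CPM in LPS_scramble. Every miR-29a library was higher. The log2 change was 1.01 with an SE of 0.23 (limma adjusted p = 0.0339). Without any 1 of the LPS_scramble libraries, or without LPS_miR-29a replicate 1 or 3, the call was lost at log2 changes of 0.81 to 1.12 (limma adjusted p = 0.0546 to 0.114). The 3′ untranslated region of Tnf held 0 miR-29a matches, and the cause of its higher level was not tested.

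Nfkbia and Nfkbiz gave log2 changes of 0.58 and 0.56 (limma adjusted p = 0.214 and 0.112), and Nfkbiz passed with all 32 libraries in 1 fit, at 0.53 (limma adjusted p = 0.0462). With the replicate block, 5 of 10 genes were called and the calls among all genes went from 630 to 2641. Tnf, Nfkbia and Nfkbiz rose by 0.93, 0.51 and 0.52 (limma adjusted p = 0.000313, 0.00593 and 0.00806), and Nfkb1 (the precursor of the canonical DNA-binding subunit) and Tnip1 fell, with log2 changes of -0.32 and -0.32 (limma adjusted p = 0.0268 and 0.0309). Groups did not overlap for 2 of 10 genes, Tnf and Tnip1, against 13.3% of 13417 genes. With miR-146a, the intervals of all 10 genes included 0. That of Tnf ran from -0.91 to 0.16 around -0.37 and that of Tnfaip3 from -0.51 to 0.02 around -0.24. For 0 of 10 genes did the groups not overlap, against 10.7% of 13392.

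**Figure D5:**
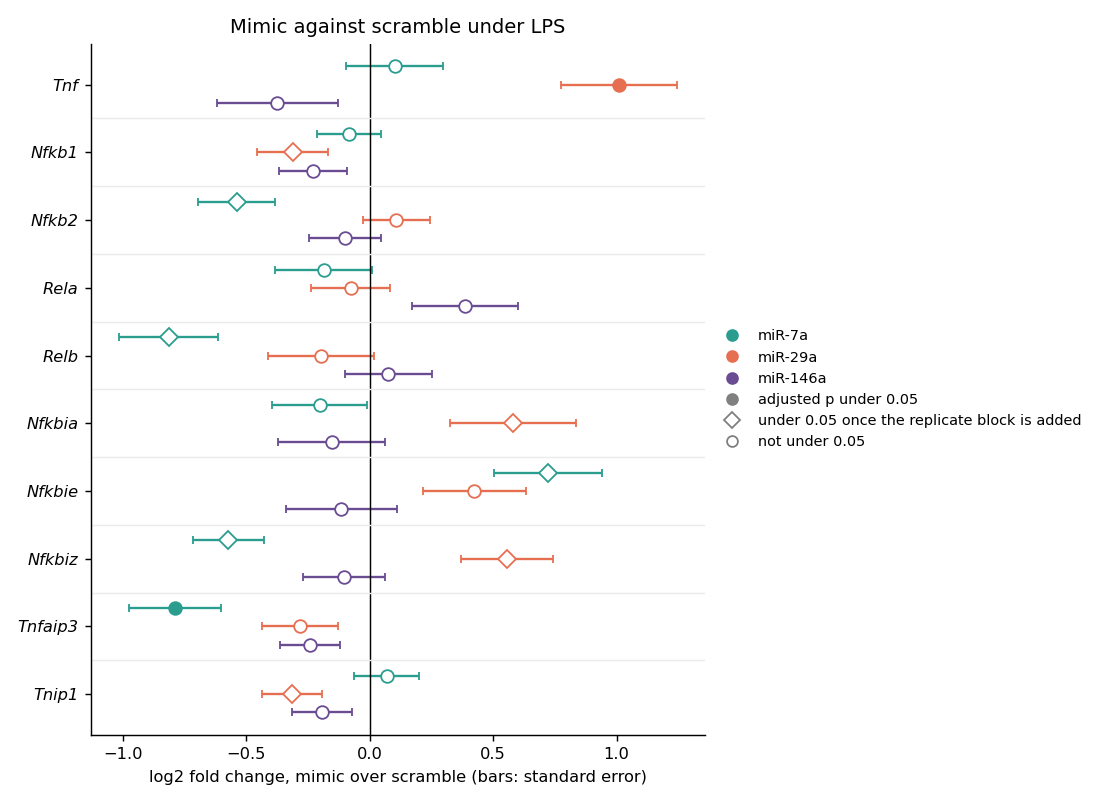
Log2 fold change of each gene, mimic over scramble under LPS, with the standard error, for miR-7a (green), miR-29a (orange) and miR-146a (purple). Filled circles passed an adjusted p under 0.05 (Tnfaip3 with miR-7a at -0.79, Tnf with miR-29a at 1.01), diamonds passed once the replicate block was added to the fit, and open circles passed in neither of these fits.

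Under vehicle, 0 of 10 genes were called with miR-7a, 0 of 9 with miR-29a and 0 of 10 with miR-146a, by limma-voom and by edgeR alike, against 0.199%, 0.00868% and 2.37% of all genes by limma-voom. At an unadjusted p under 0.05 there were 1, 0 and 0 members, against 12.6%, 10.4% and 25.3% of all genes. Nfkb2 was at 51.8, 42.4, 40.9 and 51.7 CPM in VEH_miR-7a and at 61.9, 70.9, 62.7 and 58.1 CPM in VEH_scramble. The groups were separate, yet the log2 change of -0.40 with an SE of 0.18 did not pass (limma adjusted p = 0.374). Tnfaip3 gave -0.15 with miR-7a, with an interval of -0.60 to 0.30, and Tnf gave -0.09 with miR-29a, with an interval of -0.49 to 0.31. Groups did not overlap for 2 genes with miR-7a (Nfkb2 and Relb), 0 with miR-29a and 1 with miR-146a (Relb), against 7.81%, 6.23% and 15.2% of genes.

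Across the 8 groups, mean Tnf ranged from 11.9 CPM in VEH_miR-146a to 33.5 CPM in LPS_miR-29a. The other 7 groups of Tnf, from 11.9 to 17.04 CPM, differed by no more than the largest of their SDs, 5.42 CPM. Tnfaip3 was lowest in VEH_miR-7a with 54.9 ± 16.6 CPM and highest in LPS_scramble with 127 ± 15.5 CPM (SD, n = 4 each). Its 4 vehicle groups lay between 54.9 and 59.3 CPM, and above them came LPS_miR-7a with 74.5 ± 18.9, LPS_miR-29a with 104 ± 19.95 and LPS_miR-146a with 105 ± 9.63 CPM (SD, n = 4 each). Tnip1 was at 121.7 ± 17.3 CPM in LPS_miR-7a and 115.7 ± 8.84 CPM in LPS_scramble (SD, n = 4 each), a difference smaller than either SD.

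Over the 32 libraries, the genes outside this set whose log2 CPM followed a member most closely were listed, 2 per member, from 8849 genes of at least 10 CPM. Tnip1 ran with Il1rn, the interleukin-1 receptor antagonist (Pearson r = 0.89), and Tm9sf4 (0.88). Tnfaip3 ran with RP24-285A14.1 (0.87) and Ptgs2, the inducible prostaglandin synthase (0.85). Rela ran with Bcl9l (0.85) and Zfp467 (0.84), Nfkbiz with Serp1 (0.82) and Stap1 (0.81), Nfkb2 with Trappc12 (0.80) and Thra (0.79), and Relb with Edc3 (0.79) and Cnppd1 (0.76). Tnf ran with Sod2, mitochondrial superoxide dismutase (0.68), and Pnp (0.66). Nfkbie ran with Zbtb14 and Dusp18 (0.71 and 0.69), Nfkbia with Atp5f1 and Mtx2 (0.70 and 0.69), and Nfkb1 with Cnot3 and Dhx38 (0.63 and 0.62). These are descriptions over libraries that share the LPS treatment, depth and replicate number.

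The rest of the pathway was read from lists of its parts. In LPS_scramble against VEH_scramble, the median log2 change of all genes was 0.01, and 18.1% of them were called, 9.63% higher and 8.48% lower. Of 15 genes for TNF receptors and the receptor complex, 2 rose and 1 fell, with a median of 0.21, a share of calls near that of all genes. Tnfrsf1b, the second TNF receptor, rose from 226.7 ± 43.0 to 325 ± 43.7 CPM (SD, n = 4 each), a log2 change of 0.54 (limma adjusted p = 0.0406). Birc3, an inhibitor-of-apoptosis ubiquitin ligase, rose by 0.77 on the log2 scale (limma adjusted p = 0.00864), and Birc2 gave 0.42 (limma adjusted p = 0.0674). Traf5, an adaptor of TNF-family receptors, fell from 21.6 ± 2.79 to 8.51 ± 1.498 CPM (SD, n = 4 each), a log2 change of -1.24 (limma adjusted p = 0.000813). Traf5 also fell with miR-7a, miR-29a and miR-146a, by log2 changes of -0.97, -1.16 and -1.12 (limma adjusted p = 0.0230, 0.00148 and 0.0232).

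Of 12 IKK and upstream kinases, 2 rose and 0 fell, with a median of 0.22, again a share of calls near that of all genes. Tbk1 and Tab3, a kinase and an adaptor of the activating complexes, gave 0.62 and 0.54 (limma adjusted p = 0.0345 and 0.0413), and Chuk, an IKK catalytic subunit, and Map3k7 gave 0.61 and 0.45 (limma adjusted p = 0.0576 and 0.218). With miR-29a, 5 of the 12 rose under LPS (Chuk, Tab3, Tbk1, Map3k8 and Ikbke), against 12.8% of all genes called higher. Chuk was also higher with miR-29a than with scramble under LPS, at 73.6 ± 7.39 against 52.4 ± 5.75 CPM (SD, n = 4 each), a log2 change of 0.52 (limma adjusted p = 0.0414). It was the only gene of this list called in a mimic comparison.

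Among 14 genes for the other subunit and other inhibitors, 3 rose and 1 fell, with a median of 0.27. Bcl3, a nuclear partner of the DNA-binding subunits, went from 2.99 ± 0.389 to 16.9 ± 7.84 CPM (SD, n = 4 each), a log2 change of 2.49 (limma adjusted p = 0.00199). Tax1bp1, a ubiquitin-binding partner of Tnfaip3, and N4bp1 rose by 0.96 and 0.62 (limma adjusted p = 0.0135 and 0.0162). Nfkbid, an atypical inhibitor, fell from 22.04 ± 3.46 to 10.2 ± 0.839 CPM (SD, n = 4 each), a log2 change of -1.09 (limma adjusted p = 0.00131).

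Of 27 NF-κB target genes 18 passed the filter on low counts. Some passed it only through the LPS libraries, as Lcn2 did, so the counts of targets here and below are a description and not a test of the list. No median is read from them, and the shares of all genes beside them are given for scale only. Of the 27, 7 rose (Saa3, Lcn2, Ptgs2, Il1b, Nos2, Traf1 and Sod2) and 2 fell (Cd83 and Icam1). With miR-29a 10 of the 27 rose, with miR-7a 4 and with miR-146a 4, and in each of these 1 fell, Cd83. Of all genes 12.8%, 2.71% and 2.91% were called higher and 13.8%, 4.05% and 1.6% lower in these comparisons. The counts of targets are therefore not compared between mimics. Saa3, an acute-phase protein, rose from 2.13 ± 1.01 to 786 ± 181 CPM (SD, n = 4 each), a log2 change of 8.58 (limma adjusted p = 6.89e-08). Lcn2, which sequesters bacterial iron carriers, stood at 98.4 ± 20.5 CPM under LPS (SD, n = 4) and at 0 counts in VEH_scramble. There 3 counts amount to 0.324 to 0.785 CPM if the TMM correction is left out, a scale that differs from that of the 98.4 CPM. Ptgs2 rose by 2.29 (limma adjusted p = 0.000459), while Cd83, a surface marker of activated antigen-presenting cells, fell from 271 ± 60.9 to 63.4 ± 17.9 CPM (SD, n = 4 each), a log2 change of -2.13 (limma adjusted p = 0.000156).

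Under LPS, some of these targets differed between a mimic and scramble. Saa3 was at 343 ± 60.7 CPM with miR-7a, below scramble by a log2 change of -1.18 (limma adjusted p = 0.00769), and at 1589 ± 637 CPM with miR-29a, above it by 0.99 (limma adjusted p = 0.0419; SD, n = 4 each). Lcn2 was at 282 ± 99.8 CPM with miR-29a (SD, n = 4), a log2 change of 1.5 over scramble (limma adjusted p = 0.00865), and Ptgs2 fell with miR-7a, at -1.47 (limma adjusted p = 0.0217). In all, 1 of 21 targets rose (Ccl2) and 2 fell with miR-7a, 4 of 21 rose (Ccl2, Cxcl10, Lcn2 and Saa3) and 1 fell (Nos2) with miR-29a, and 0 of 19 passed with miR-146a by limma-voom, with 3 at an unadjusted p under 0.05, against 17.5% of all genes. Of all genes 1.68% were called higher and 1.19% lower with miR-7a, and 2.22% higher and 2.57% lower with miR-29a. Ccl2, Cxcl10, Nos2 and the other genes named here only by direction lie outside the naming rule and were chosen after their values were seen. Differences between the mimics themselves were not tested.

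Of 11 genes for decay and stability of the Tnf messenger RNA, 0 rose and 1 fell in scramble cells, with a median of -0.21. Zfp36l1, a relative of the factor that destabilises AU-rich messages, fell from 203.6 ± 20.3 to 138 ± 29.9 CPM (SD, n = 4 each), a log2 change of -0.57 (limma adjusted p = 0.0432), and with miR-29a it fell by 0.83 on the log2 scale (limma adjusted p = 0.00147). Tial1, Zfp36l2 and Mapk14 gave 0.39, -0.35 and -0.28 (limma adjusted p = 0.124, 0.171 and 0.198). In the comparison of LPS_miR-29a with LPS_scramble, 0 of the 11 were called by limma-voom, with 1 at an unadjusted p under 0.05 against 21.5% of all genes, and the median was 0.04. Decay of the Tnf message was not measured, and its part in the level of Tnf was not tested. Under vehicle, against 0.979% of all genes, 2 of the 11 rose with miR-146a, Rc3h1 and Rc3h2, which encode RNA-binding proteins of the roquin family.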

How the data were processed

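RNA of 32 BV-2 libraries was sequenced by the authors as total RNA after ribosomal RNA depletion and counted on GRCm38 with nf-core rnaseq, the aligner and counter settings not being given in the sources used here; the submitters' processing notes name limma and edgeR. The deposited values are estimated counts that lost their decimal mark. Of 109458 values of 20000 or more, 0.0155% end in 0 and 43.1% end in 2 zeros and a 1 or in 3 nines. A model restored the mark, judging each value by how its digits end and by how high the gene was in like libraries. The prior shares of 1, 2 and 3 decimals were 0.01, 0.09 and 0.9, and 28.3% of 590874 values above 0 were given a mark. Readings with a posterior under 0.9 (1.69% of values) were left out with their gene. Of the 320 member values, 61 were read with a lost mark.

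Each pair of groups, and each interaction over 16 libraries, was fitted with filterByExpr, TMM and limma-voom (limma 3.58.1, edgeR 4.0.16, R 4.3.3); the authors describe filterByExpr, TMM, a log transformation and a limma/edgeR model per pair, and the voom weights were chosen here. The p-values were adjusted by Benjamini-Hochberg over all genes tested. A call is an adjusted p under 0.05. CPM values use TMM factors over all libraries. Exon lengths, 3′ untranslated regions and positions come from GENCODE M21 on GRCm38, to which 45143 of 45706 gene IDs matched. Replicate numbers were taken as pairs where each same-numbered correlation of deviations from the group means exceeded 0.1. This held in LPS_scramble against VEH_scramble, LPS_miR-29a against VEH_miR-29a, the 3 mimic comparisons under LPS and VEH_miR-29a against VEH_scramble (lowest 0.160 to 0.323), and not in the other 4 (lowest -0.102 to 0.0978). The p-values measure the spread between these libraries. The scripts were tested on simulated data. No 2 libraries held identical values (0 pairs).

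The members and lists were chosen with earlier results of these data known. All members are named; of each list, up to 4 genes with the smallest adjusted p in LPS_scramble against VEH_scramble are named; and the 2 non-members with the highest Pearson r are given per member. Alternatives were the replicate block, edgeR, DESeq2 1.42.0 size factors, no count filter, stricter or no posterior limit, 1 set of library sizes in the restoration, values as deposited, a log2 limit of 0.3, all 32 libraries in 1 fit, each library left out, and, chosen after seeing the data, structural RNA genes left out. The result of 1 marker gene is not reported here.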

Additional observations from a re-analysis of the deposited data

Results flagged for a closer look

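Each member was checked in each group for 1 library standing far from the other 3 (80 groups, Dixon's test at the 95% level). This marked 4 groups, or 5%, and chance marks about 1 in 20. Relb in VEH_miR-7a replicate 4 was at 7.76 CPM against 16.2 to 16.6 CPM in the other replicates; this is the shallowest library, with 1131888 counts. Nfkbia in VEH_miR-7a replicate 2 was at 52.4 CPM against 36.2 to 38.4 CPM. Tnfaip3 in VEH_miR-29a replicate 4 was at 64.9 CPM against 50.9 to 52.5 CPM. Tnip1 in VEH_miR-146a replicate 4 was at 80.7 CPM against 57.5 to 59.6 CPM, still below every LPS_miR-146a library.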

How the results depend on the processing

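Of the 12 calls of single members, 185 of 213 alternatives on restored values kept the call. These include the log2 limit of 0.3, which could not remove a call, since the smallest of the 12 log2 changes was 0.65 in size. Values used as deposited, without restored marks, called 0 members in every comparison and reversed Tnfaip3 (-2.09) and Tnip1 (-1.84) in LPS_scramble against VEH_scramble and Tnip1 (-0.92) in LPS_miR-146a against VEH_miR-146a; a value that lost its mark is inflated. With the replicate block, members called rose from 2 to 4 in LPS_scramble against VEH_scramble, from 1 to 5 with miR-7a and from 1 to 5 with miR-29a under LPS, and the block changed no other member call. For LPS_miR-7a against LPS_scramble, edgeR, a posterior of at least 0.99 and the fit without structural RNA genes each called 2, all 32 libraries in 1 fit called 4, and uncertain values kept called 0. All 32 libraries in 1 fit called 2 for LPS_miR-29a against LPS_scramble, and 0 and 1 for LPS against vehicle with miR-7a and miR-146a, where Tnip1 was not tested because of its uncertain value. Leaving out 1 library gave 2 to 3 members called for LPS against vehicle with scramble, 0 to 1 with miR-7a, 4 to 6 with miR-29a and 1 to 2 with miR-146a, 0 to 1 for miR-7a and for miR-29a under LPS, and 0 in the other comparisons. Numbers of calls among all genes also moved. With the block they went from 2204 to 3725 and from 3218 to 5059 for LPS with scramble and miR-29a, from 541 to 1115 with miR-146a, from 371 to 2117, 630 to 2641 and 300 to 1919 for the miR-7a, the miR-29a and the miR-146a mimic under LPS, from 22 to 231, 1 to 82 and 276 to 1443 under vehicle, and from 7 to 51, 2 to 21 and 1 to 2 for the interactions. Without the count filter LPS with miR-7a went from 798 to 7823, miR-29a and miR-146a under vehicle from 1 to 3 and from 276 to 416, and the miR-29a interaction from 2 to 5. All 32 libraries in 1 fit gave 867 for LPS with miR-146a, and 177, 90 and 1569 for the 3 mimics under vehicle. With edgeR, miR-146a under LPS gave 172, and miR-7a and miR-29a under vehicle gave 50 and 3. For miR-7a under vehicle, 1 set of library sizes in the restoration gave 71, the fit without structural RNA genes 46 and uncertain values kept 37; with these kept, miR-29a under vehicle gave 7 and the interactions 18, 8 and 4. With 1 set of sizes the miR-7a interaction gave 21, and a posterior of at least 0.99 gave 0 for the miR-146a interaction. As deposited, the comparisons gave 6 to 265. Leaving out 1 library gave 1119 to 2905 for LPS with scramble, 444 to 853 with miR-7a, 2180 to 3652 with miR-29a and 272 to 494 with miR-146a. It gave 66 to 383, 166 to 703 and 30 to 271 under LPS for the same mimics in turn, 8 to 252, 0 to 5 and 2 to 1233 under vehicle, and 5 to 137, 0 to 3 and 1 to 87 for the interactions. In LPS against vehicle with miR-7a or miR-146a, and in miR-7a or miR-146a under vehicle, the lowest same-numbered correlation did not exceed 0.1. The mean same-numbered correlations there were 0.14, 0.22, 0.13 and 0.19 in turn, against -0.05, -0.07, -0.04 and -0.06 for different numbers. A pairing by replicate number was thus not excluded in these comparisons. Counts were lowest for Nfkbie, with 1 in its lowest library.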
